A study of Homo sapiens with 18 samples.

Results

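TCL1A, RFLNB and LRIG1 are 3 genes that moved in opposite directions in different leukemia lines after knockdown of the transcription factor SOX11. All 3 were higher with SOX11 siRNA in REH cells and lower with it in 697 and RCH-ACV cells. They were selected on these very values, as the genes called in each of the 3 lines (adjusted p under 0.05) with that mix of signs, and are 3 of 26941 genes in the count tables. REH, 697 and RCH-ACV are established lines of acute lymphoblastic leukemia from B-cell precursors. REH is the 1 line of the ETV6-RUNX1 subtype, so that subtype and line cannot be told apart. In each line, 3 cultures received SOX11 siRNA and 3 received a non-specific control siRNA, all by nucleofection at 300 nM, and RNA was collected 48 h later. Sample titles call the knockdown "KO", although no allele was edited. No untransfected culture was included, and each line stands for a single donor's leukemia, so n = 3 counts cultures and not patients.

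TCL1A is a coactivator that binds the AKT kinases and raises their activity, and it is an oncogene of lymphoid cells that is normally expressed in developing B cells. RFLNB encodes refilin B, a small protein that binds filamins and alters how they bundle actin filaments. LRIG1 is a transmembrane protein with leucine-rich repeats and immunoglobulin-like domains that promotes the degradation of ERBB and other receptor tyrosine kinases. SOX11 is a member of the SoxC family of HMG-box transcription factors and is normally silent in B cells.

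On the hg19 assembly, TCL1A lies at chr14:96176284-96180533, RFLNB at chr17:289769-295730 and LRIG1 at chr3:66429221-66551687, each on the minus strand. The annotated transcript of TCL1A has 4 exons and 1345 bases, that of RFLNB 2 exons and 3621 bases, and that of LRIG1 19 exons and 5363 bases. RefSeq promoter windows, from 250 bases before to 50 bases after the start (GRCh38.p14, minus strand), were at hand for 2 of the 3 genes. They are shown as a description of genes selected for a shared mix of signs, with the matches to the motifs searched in capitals. For LRIG1 the window of the outermost of 4 starts is given. The TCL1A window is chr14:95714076-95714375 and the LRIG1 window is chr3:66501072-66501371.
TCL1A: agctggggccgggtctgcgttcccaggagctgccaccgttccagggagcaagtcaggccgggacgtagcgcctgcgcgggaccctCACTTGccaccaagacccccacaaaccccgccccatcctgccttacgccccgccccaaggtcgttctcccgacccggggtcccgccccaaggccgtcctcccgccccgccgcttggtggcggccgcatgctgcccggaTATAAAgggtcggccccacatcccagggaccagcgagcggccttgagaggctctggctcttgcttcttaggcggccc
LRIG1: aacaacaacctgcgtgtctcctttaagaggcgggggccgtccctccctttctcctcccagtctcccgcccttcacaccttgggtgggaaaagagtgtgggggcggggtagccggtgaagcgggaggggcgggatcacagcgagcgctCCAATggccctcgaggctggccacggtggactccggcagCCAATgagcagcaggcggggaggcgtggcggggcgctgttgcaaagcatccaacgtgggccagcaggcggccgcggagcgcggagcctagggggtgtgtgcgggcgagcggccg
The motifs were searched on both strands and are the SOX words AACAAAG and AACAATG, the TATA box TATAAA, the CCAAT box CCAAT and the E-box CANNTG. The TCL1A window held TATAAA once, from base -27 to -22 with the start at 0, and 1 E-box. These motifs stand in 11.5% and 68.7% of 35116 RefSeq promoter windows. The LRIG1 window held 2 CCAAT boxes, a motif found in 34.6% of windows. No match overlapped another. Neither window held AACAAAG or AACAATG, which stand in 5.2% and 3.33% of windows. The windows had 70.7% and 69.3% G and C, compared with a median of 58.7% over all windows.

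The libraries held 7039594 to 16592492 counts each, and 3 counts correspond to 0.181 to 0.426 CPM (read counts scaled by the size of the library). SOX11 fell in every line. In REH, control cultures had 96.4 ± 2.92 CPM and siRNA cultures 54.2 ± 6.90 CPM (mean ± SD, n = 3 here and below; log2 fold change -0.83). In 697, these were 59.6 ± 0.278 and 31.7 ± 0.848 CPM (-0.91), and RCH-ACV had 131 ± 6.07 and 82.4 ± 4.06 CPM (-0.67). Of 9 B-cell precursor markers (CD79A, PAX5, EBF1 and others), 8 reached 1 CPM in REH and 9 in 697 and RCH-ACV, while HBB and HBA1 were at 0 in every line and the T-cell list summed to at most 0.884 CPM. The 4 myeloid markers (MPO, CD14, LYZ and CSF1R) were low but present, at 14.1 to 15.7 CPM in sum in REH controls and 8.83 to 10.1 CPM in REH with siRNA, at most 4.64 CPM in 697, and 27.0 to 31.0 CPM in RCH-ACV controls against 23.6 to 29.3 CPM with siRNA. The summed B-cell precursor markers were 4014 to 4174 CPM in REH controls and 4415 to 4506 CPM in REH with siRNA. In 697 the controls had 2579 to 2612 CPM and the siRNA cultures 2370 to 2429 CPM, so that the sum went the same way as the 3 genes in both lines. In RCH-ACV the sum went the other way from the 3 genes, with 2362 to 2433 CPM for controls and 2437 to 2588 CPM for siRNA. A sum need not hold for each marker. CD79A did not fall with the sum in 697, where its log2 fold change was 0.06 and not called. It was called higher in REH (0.13) and RCH-ACV (0.46). Values of the other B-cell precursor markers are not given here. The part of these markers in the results below was not tested.

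TCL1A was the most highly expressed of the 3 genes. In REH, it measured 622.4, 628.4 and 648.3 CPM in the control cultures and 756.9, 749.7 and 697.2 CPM with SOX11 siRNA. All siRNA cultures were above all control cultures, a difference of 16.5% (log2 fold change 0.22, SE 0.03). In 697, it measured 547.2, 536.8 and 571.8 CPM in control cultures and 403.4, 382.6 and 415.4 CPM with SOX11 siRNA, and the siRNA cultures were all lower (log2 fold change -0.47, SE 0.05). In RCH-ACV, the values were 657.6, 636.8 and 624.0 CPM in control cultures and 566.8, 569.3 and 600.2 CPM with SOX11 siRNA. Here the arms again did not overlap, but the distance was the smallest of the 9 (log2 fold change -0.14, SE 0.04). Between 3172 and 9516 reads per library lay behind these levels, and the RCH-ACV call was lost in 5 of 6 fits that left out a culture.

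RFLNB had the largest fold change of the 3 genes in each line. REH control cultures had 65.8, 64.8 and 62.9 CPM and REH cultures with SOX11 siRNA had 88.3, 77.5 and 86.6 CPM (log2 fold change 0.39, SE 0.05). In 697, the 3 control cultures had 123.3, 112.2 and 112.3 CPM and the siRNA cultures 78.0, 77.2 and 70.3 CPM (log2 fold change -0.63, SE 0.07). Thus the siRNA arm was above the control arm in REH and below it in 697, with no overlap in either. RCH-ACV expressed little RFLNB, at 17.5, 18.7 and 14.6 CPM in control cultures and 9.2, 12.9 and 11.5 CPM with SOX11 siRNA (log2 fold change -0.55, SE 0.13). These last values rest on 73 to 216 reads per library, the SE is the widest of the 9, and the call was lost in 3 of 6 fits that left out a culture.

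LRIG1 was low in REH and several times higher in the other lines. REH control cultures had 63.8, 57.2 and 56.2 CPM and those with SOX11 siRNA 74.0, 67.7 and 70.3 CPM (log2 fold change 0.27, SE 0.06). In 697, control cultures had 258.9, 227.8 and 241.4 CPM and siRNA cultures 184.5, 171.4 and 196.4 CPM (log2 fold change -0.40, SE 0.06). In RCH-ACV, the values were 195.4, 183.2 and 204.6 CPM against 148.6, 156.3 and 163.5 CPM (log2 fold change -0.32, SE 0.05). The arms did not overlap in any line, as the plot of levels by culture shows. Leaving out a culture ended the REH call in 2 of 6 fits and the 697 call in 3 of 6, while the RCH-ACV call was lost in 0 of 6.

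**Figure D1:**
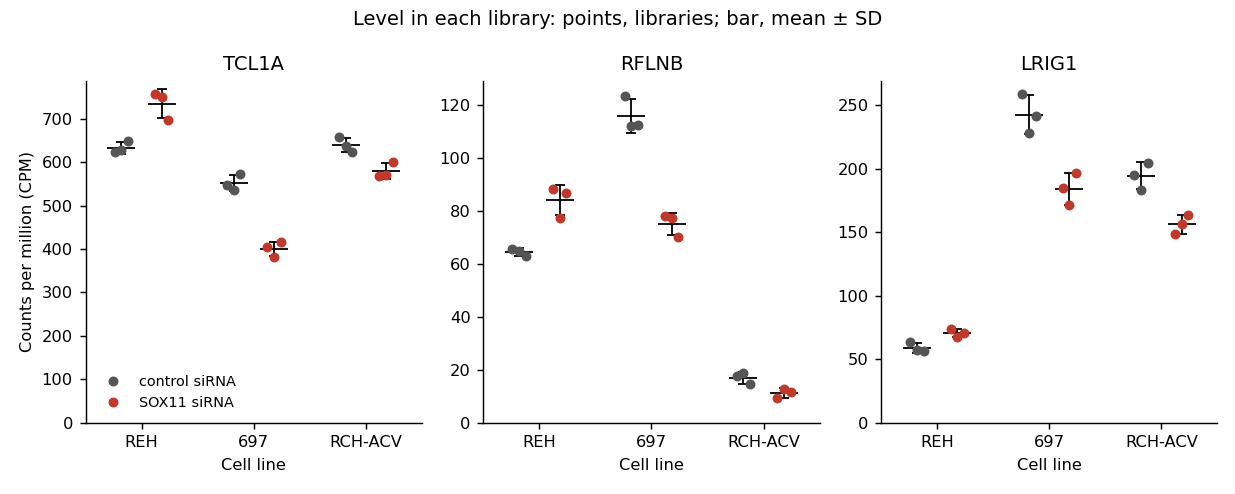
Level of TCL1A, RFLNB and LRIG1 (CPM, linear axis from 0) in each culture of REH, 697 and RCH-ACV; points are single cultures, grey with control siRNA and red with SOX11 siRNA, and the bars give mean ± SD (n = 3). Red points lie above grey in REH and below grey in 697 and RCH-ACV for every gene.

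As the genes were selected on this contrast, these counts are descriptive. In REH, 4.65% of 12787 genes were called, 2.64% higher and 2.01% lower, and the arms did not overlap for 21.4% of genes. In 697, 0.559% of 12169 genes were called, 0.0822% higher and 0.477% lower, with no overlap for 13.1%. In RCH-ACV, 7.51% of 12963 genes were called, 3.59% higher and 3.92% lower, with no overlap for 25.9%. Which direction held the majority depended on the scaling: with library size alone REH had 285 higher and 293 lower, and RCH-ACV 511 higher and 463 lower. In the fit over 18 samples REH had 108 higher and 120 lower. Over 11310 genes tested in all 3 lines, 11.5% had the signs of the 3 genes regardless of call, compared with 18.1% higher in all lines and 18.7% lower in all lines, and 0.0265% had these signs with a call in every line, which is the selection itself. The largest adjusted p-values that admitted the members were 0.0146 for LRIG1, 0.0158 for RFLNB and 0.0262 for TCL1A. Just outside were PIK3AP1 (0.136), the LIM-domain gene PDLIM1 (0.141), the recombinase gene RAG1 (0.173), ZNF608 (0.192) and TFDP2 (0.198), each with the same signs. RAG1 was called in REH (log2 fold change 0.20) and 697 (-0.41) but varied in RCH-ACV, with siRNA cultures at 755 ± 160 CPM against 872 ± 16.5 CPM.

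**Figure D2:**
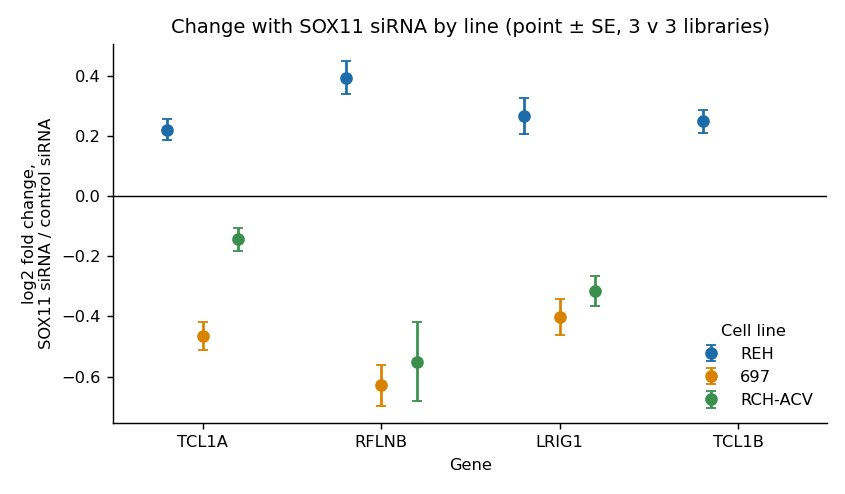
log2 fold change with SOX11 siRNA (point ± SE, 3 cultures against 3) for TCL1A, RFLNB, LRIG1 and the neighbouring paralog TCL1B in REH (blue), 697 (orange) and RCH-ACV (green). The REH points lie between 0.22 and 0.39 and the other lines between -0.63 and -0.14; TCL1B could be tested only in REH.

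The difference between lines in control cultures was not a criterion of the selection, but the same control libraries stand in each contrast that selected the genes. The adjusted p-values below are therefore not independent of the selection. Control levels were compared between lines in a fit over all 18 libraries. TCL1A was nearly level across lines, with a ratio of 1.16 between the highest and the lowest. REH and RCH-ACV did not pass the test against each other (log2 difference -0.01, SE 0.04, adjusted p = 0.758), and 697 was lower than REH by 0.20 (log2 REH minus 697, adjusted p = 0.000150) and lower than RCH-ACV (697 minus RCH-ACV, -0.21, adjusted p = 9.36e-05). With SOX11 siRNA, the ratio between the highest line, REH, and the lowest, 697, was 1.83. This second ratio is a description, since the selection set the direction of each siRNA arm. RFLNB was highest in 697, at 6.85 times its level in RCH-ACV (log2 697 minus RCH-ACV 2.78, adjusted p = 2.85e-19), and REH lay between them (REH minus 697 -0.85, adjusted p = 7.69e-11; REH minus RCH-ACV 1.93, adjusted p = 5.76e-16). LRIG1 was 4.11 times higher in 697 than in REH (REH minus 697 -2.04, adjusted p = 7.81e-20), also higher in RCH-ACV than in REH (REH minus RCH-ACV -1.72, adjusted p = 4.26e-18), and higher in 697 than in RCH-ACV by 0.32 (adjusted p = 4.56e-05). With SOX11 siRNA the ratio between 697 and REH was 2.60 for LRIG1. This ratio too is a description, since the selection required a rise in REH and a fall in 697. These adjusted p-values are from edgeR, and most genes differ between the lines: 75.6% of 14026 genes were called between REH and 697, 73.5% between REH and RCH-ACV and 63.7% between 697 and RCH-ACV.

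Per length, TCL1A was far above the other genes in every group, from 298 CPM per kilobase of transcript (RPKM) in 697 with SOX11 siRNA to 546 RPKM in REH with SOX11 siRNA. RFLNB ranged from 3.09 RPKM in RCH-ACV with siRNA to 32.0 RPKM in 697 controls, and LRIG1 from 11.01 RPKM in REH controls to 45.3 RPKM in 697 controls. In the order of the 6 groups, TCL1A in RCH-ACV controls and REH controls overlapped, as did RCH-ACV with siRNA and 697 controls. RFLNB in REH with siRNA overlapped 697 with siRNA, and LRIG1 in RCH-ACV controls overlapped 697 with siRNA. All other neighbours in the order were apart.

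The counts of TCL1A are shared by its transcripts. The tables list the transcripts NR_049726, NM_021966 and NM_001098725 for TCL1A, which differed by only 17 to 63 reads per library (0.425% to 0.799%), so the levels given are for the gene and not for an isoform. RFLNB and LRIG1 each have 1 transcript in the tables. An antisense long noncoding RNA (ENSG00000257275) overlaps TCL1A and the mitochondrial carrier gene SLC25A26 overlaps LRIG1 on the other strand. The library kit kept the strand, but whether counting used it was not stated, so reads of overlapping genes cannot be told apart. SLC25A26, looked up after the members' values were seen, stood at 13.0 to 18.2 CPM in the 6 groups and was not called in any line.

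The paralogs behaved as follows. TCL1B, which also binds AKT and lies 17.3 kb from TCL1A, was expressed in REH. It measured 318.8, 308.8 and 304.8 CPM in REH control cultures and 379.4, 378.4 and 346.3 CPM with SOX11 siRNA. The arms did not overlap, and TCL1B was called higher (log2 fold change 0.25, SE 0.04, adjusted p = 0.000229 by edgeR). In 697 and RCH-ACV no library held more than 3 reads of TCL1B, which is at or under the floor, and it was not tested there. MTCP1, the X-linked member of the TCL1 family, was between 3.52 and 7.94 CPM in the 6 groups and not called. RFLNA, the other refilin, was at most 1.48 CPM. LRIG2 was at 33.8 CPM in REH, 13.8 in 697 and 14.6 in RCH-ACV controls and was not called, and LRIG3 was at 0 in all libraries.

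Around the genes, the 2 nearest expressed genes on each side (1 on a side for RFLNB, which lies near the end of its chromosome) were examined. Near TCL1A, GLRX5, 165.2 kb away, was called lower in RCH-ACV (147.7 ± 3.00 to 124.1 ± 4.15 CPM, log2 fold change -0.25, adjusted p = 0.00341 by edgeR), as was C14orf132, 325.2 kb away (log2 fold change -0.24, adjusted p = 0.0268). The arms of C14orf132 were also apart in REH (-0.13, adjusted p = 0.0663) and 697 (-0.17, adjusted p = 0.374), which did not pass, and the difference between lines was not tested. GLRX5 is a mitochondrial glutaredoxin of iron-sulfur cluster assembly. ATG2B, an autophagy gene 565.0 kb away, was not called in any line. RPH3AL, VPS53 and TLCD3A beside RFLNB were not called in any line in which they were tested. Near LRIG1, the metalloproteinase gene ADAMTS9, 1755.5 kb away, was called lower in RCH-ACV (16.2 ± 2.69 to 9.61 ± 1.32 CPM, log2 fold change -0.77, adjusted p = 0.00204) and was at 0 in the other lines. MAGI1, KBTBD8 and SUCLG2 were not called. Of the neighbours, TCL1B alone was called in REH, and none was called in 697.

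The genes around TCL1A in AKT signalling were read from a list of 32. In REH, 4 of 31 tested were higher and 0 lower; in 697, 0 of 29 were higher and 1 lower; in RCH-ACV, 2 of 30 were higher and 0 lower. Over all genes tested in REH, 2.64% were higher and 2.01% lower. For 697 these shares were 0.0822% and 0.477%, and for RCH-ACV 3.59% and 3.92%. The list's median log2 fold changes, in the order REH, 697 and RCH-ACV, were 0.03, -0.03 and 0.02, beside medians over all genes of -0.0022, -0.0038 and 0.0049. The REH genes were TCL1B, the inositol phosphatase gene INPP5D (241.7 ± 8.37 to 300.4 ± 8.80 CPM, log2 fold change 0.32, adjusted p = 4.52e-06), the kinase subunit gene PIK3CD (log2 fold change 0.21, adjusted p = 0.00193) and the transcription factor gene FOXO1 (0.14, adjusted p = 0.0476), the last lying outside the rule for named genes and picked after its values were seen. INPP5D opposes AKT by removing a phosphate from its lipid activator, while PIK3CD makes that lipid. PIK3AP1, the adaptor that links the B-cell receptor to this kinase, was called lower in 697 (432.9 ± 24.7 to 353.5 ± 23.1 CPM, log2 fold change -0.29, adjusted p = 0.0429), and had values of 0.08 in REH and -0.11 in RCH-ACV that did not pass. In RCH-ACV, the AKT phosphatase gene PHLPP1 (0.26, adjusted p = 0.00436) and AKT2 (0.18, adjusted p = 0.0363) were higher. No gene of this list was called in more than 1 line. With a culture left out, FOXO1 lost its call in 6 of 6 fits, PIK3AP1 and AKT2 in 5 of 6, and TCL1B, INPP5D, PIK3CD and PHLPP1 in 0 of 6. With DESeq2, FOXO1 (adjusted p = 0.135) and AKT2 (adjusted p = 0.0744) were not called, nor was PIK3AP1 with RLE size factors in place of TMM (adjusted p = 0.0560).

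Among 19 refilins, filamins and filamin partners, 3 of 14 were higher in REH, 0 of 14 changed in 697, and 2 of 13 were higher and 2 lower in RCH-ACV. Over all genes, 2.64% were higher in REH, 0.559% were called in 697, and 3.59% were higher and 3.92% lower in RCH-ACV. The list's median log2 fold change was -0.04, -0.03 and 0.0076 in the same order. The filamin gene FLNA, to whose product refilin B binds, was not called in any line (log2 fold change -0.16, -0.18 and -0.02). ITGB1, the beta 1 integrin that binds matrix proteins, was the gene of this list with opposite calls. It went from 61.8 ± 0.445 to 78.0 ± 2.18 CPM in REH (log2 fold change 0.34, adjusted p = 0.000149) and from 166.9 ± 3.37 to 143.8 ± 6.40 CPM in RCH-ACV (-0.21, adjusted p = 0.00964), with no overlap of the arms in either line. In 697 it was -0.08 and did not pass. ITGB2, the leukocyte integrin beta 2, rose in REH (0.61, adjusted p = 0.0261) and RCH-ACV (0.75, adjusted p = 0.000103), and its 697 value of 0.40 did not pass. ACTB rose in REH (0.12, adjusted p = 0.0220, arms overlapping), ACTN4 rose in RCH-ACV (0.17, adjusted p = 0.0406) and VIM fell in RCH-ACV (-0.14, adjusted p = 0.0202). With a culture left out, ITGB1 kept its REH call in all 6 fits and lost that in RCH-ACV in 4 of 6, ITGB2 lost its REH call in 3 of 6, and ACTB, ACTN4 and VIM lost theirs in 4 of 6. With DESeq2, ITGB2 in REH (adjusted p = 0.106), ACTB (adjusted p = 0.0509) and ACTN4 (adjusted p = 0.0754) were not called.

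Of 31 LRIG proteins and genes of receptor signalling, 1 of 20 was higher and 1 lower in REH, 0 of 21 changed in 697, and 0 of 23 were higher and 2 lower in RCH-ACV. The shares called over all genes, REH first and RCH-ACV last, were 4.65%, 0.559% and 7.51%. The list's median log2 fold change was -0.02, -0.05 and 0.03 in these lines. EGFR and PDGFRA, receptors of the kind LRIG1 acts on, were at 0 in all libraries, MET was at 0 in 697 and RCH-ACV, and ERBB2 stood at 2.24 to 11.4 CPM in the 6 groups. The receptor PDGFRB was expressed, at 16.6 CPM in REH, 101.7 CPM in 697 and 178.4 CPM in RCH-ACV controls, and was not called in any line. GAB1, an adaptor for such receptors, rose in REH (360.4 ± 29.0 to 437.7 ± 24.2 CPM, log2 fold change 0.29, adjusted p = 0.000229). SPRY2, a feedback inhibitor of receptor signalling, fell in REH (-0.39, adjusted p = 0.00407) and was -0.31 in 697 and -0.18 in RCH-ACV without passing. In RCH-ACV, SPRY4 (-0.39, adjusted p = 0.0294) and the ERK phosphatase gene DUSP6 (113.7 ± 4.57 to 81.2 ± 3.09 CPM, -0.49, adjusted p = 4.76e-05) fell. With a culture left out, SPRY4 lost its call in 3 of 6 fits, and GAB1, SPRY2 and DUSP6 in 0 of 6.

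**Figure D3:**
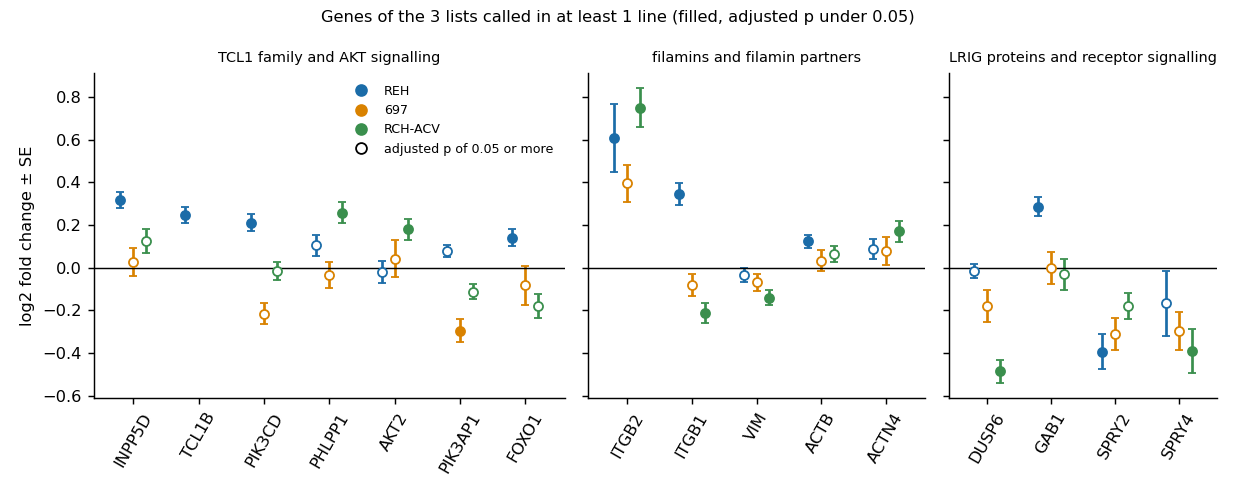
log2 fold change (± SE, 3 cultures against 3) of the genes of the 3 lists that were called in at least 1 line, in REH (blue), 697 (orange) and RCH-ACV (green); filled points have an adjusted p under 0.05. ITGB1 is filled on opposite sides of 0 in REH (0.34) and RCH-ACV (-0.21).

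Opposite calls were few. REH and RCH-ACV shared 161 called genes, of which 15 had opposite signs, and all 15 were higher in REH and lower in RCH-ACV. REH and 697 shared 29, of which 4 were opposite, again all higher in REH, and 697 and RCH-ACV shared 42, of which 0 were opposite. All 3 lines shared 24, of which 3 had mixed signs, namely TCL1A, RFLNB and LRIG1. Apart from these, the opposite genes of REH and RCH-ACV were ARHGEF7, CCNE2, CD24, E2F2, GAS7, IFI16, ITGB1, LHFPL2, MAN1A1, ST8SIA4, TASL and TFDP2, and that of REH and 697 was RAG1, all picked by their values. Among them E2F2, a cell-cycle transcription factor, had log2 fold changes of 0.31 in REH and -0.19 in RCH-ACV, CCNE2, its cyclin target, 0.19 and -0.33, and the B-cell surface gene CD24 0.13 and -0.23. Their 697 values were -0.12, -0.02 and -0.11, and did not pass. Not all of the opposite genes were negative in 697: TASL (0.17), ST8SIA4 (0.04) and MAN1A1 (0.00096) lay above 0 and did not pass either.

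**Figure D4:**
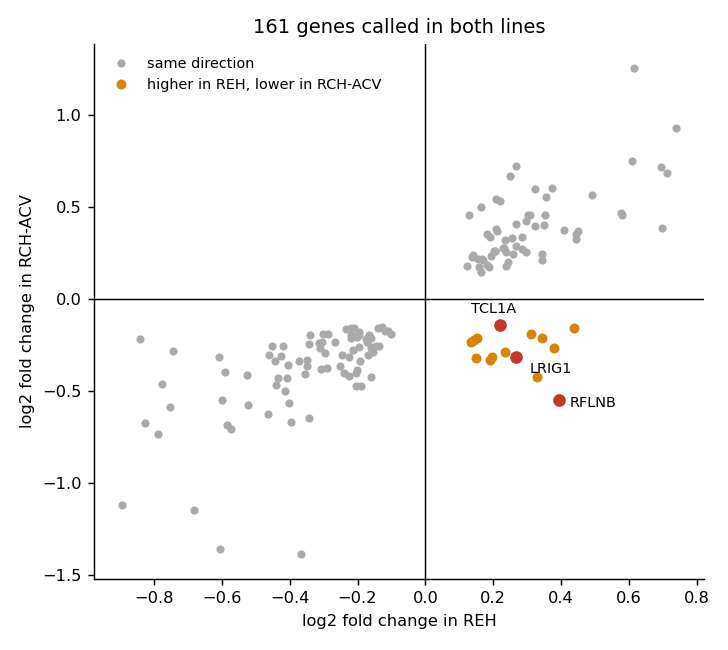
log2 fold change with SOX11 siRNA in REH (horizontal) and RCH-ACV (vertical) for the 161 genes called in both lines, one point per gene. Orange and red points are the 15 genes higher in REH and lower in RCH-ACV, with TCL1A, RFLNB and LRIG1 in red; no gene lies in the opposite quadrant.

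Over the 18 libraries, after each line's mean log2 level was subtracted, the 3 genes followed each other, with Pearson r of 0.870 for TCL1A and LRIG1, 0.858 for RFLNB and LRIG1, and 0.815 for TCL1A and RFLNB. The selection fixes much of this, since it set the direction of each gene in each line, so no p is given. Among 11390 genes, those closest to TCL1A were PIK3AP1 (0.898), PIK3CD (0.879), ZNF573 (0.874), LRIG1 (0.870) and RASA3 (0.863). Those closest to RFLNB were ZNF573 (0.876), BUB3 (0.864), LRIG1 (0.858), SWAP70 (0.845) and PDE7A (0.841). Those closest to LRIG1 were RASSF5 (0.902), ZNF573 (0.898), PIK3AP1 (0.896), TFDP2 (0.880) and ARHGEF7 (0.872). ZNF573, a zinc finger gene, was in all 3 sets at a low level of 2.47 to 4.25 CPM and was not called in any line.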

How the data were processed

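RNA was sequenced from stranded mRNA libraries of 18 cultures. The authors aligned reads to hg19 with STAR 2.5.3a and counted reads per RefSeq transcript with HOMER. They discarded reads over a limit of alignment places, and by that limit a read with more than 1 place could be kept. The deposited values are raw counts. Names came from a RefSeq table (98.0% of 50678 transcripts, 99.0% of counts), and of each gene the transcript with the highest total was kept. Positions and lengths came from GENCODE v44 on hg19, since the tables hold none. Separate edgeR 4.0.16 fits were made for the lines (TMM, quasi-likelihood F-test, low counts filtered by group) and control levels in 1 fit over 18 samples, with Benjamini-Hochberg adjusted p under 0.05 called. SE is the fold change over the root of F. CPM is scaled over all libraries. DESeq2 1.42.0, other scalings, filters and left-out cultures were tried, and the fit was tested on simulated data. Replicate pairs differed by more than sampling noise (chi-square per degree of freedom 1.30 to 5.18). Named genes were the members, paralogs, neighbours, list genes called (at most 6 per list), the 5 most alike and the 5 just outside the selection. The members and lists were chosen with earlier results of these data known. Some genes of the lists are not reported here and were left out of the lists' counts and sums.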

Additional observations from a re-analysis of the deposited data

Results flagged for a closer look

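The effect of SOX11 siRNA went in opposite directions between lines in 15 of the genes named here, with a call in each of those lines and all siRNA cultures of a line on 1 side of its controls. The difference between lines was not tested. For TCL1A the log2 fold change was 0.22 in REH, -0.465 in 697 and -0.144 in RCH-ACV. For RFLNB it was 0.393, -0.629 and -0.55, and for LRIG1 0.266, -0.401 and -0.316. These 3 genes were selected for this. The other 12 were likewise picked by their values. ITGB1, with 0.343 in REH and -0.214 in RCH-ACV, is also in the filamin list, which was chosen with earlier results of these data known.

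The values in REH and then RCH-ACV were 0.144 and -0.224 for ARHGEF7, 0.192 and -0.333 for CCNE2, 0.133 and -0.232 for CD24, and 0.31 and -0.193 for E2F2. For GAS7 they were 0.196 and -0.314, for IFI16 0.152 and -0.21, for LHFPL2 0.33 and -0.424, and for MAN1A1 0.38 and -0.268. For TASL they were 0.439 and -0.16, and for TFDP2 0.148 and -0.323. In 697, TASL (0.17) and MAN1A1 (0.00096) lay above 0 and the rest of these genes below it, and none of them was called. RAG1 had 0.198 in REH and -0.411 in 697.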

How the results depend on the processing

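Of the 9 fold changes of TCL1A, RFLNB and LRIG1, 0 reversed in 135 refits and 15 of those refits lost the call. The absence of reversals is no separate evidence. The arms did not overlap for any of the 9, so leaving out a culture could hardly reverse a sign. The other refits used the same libraries that selected the genes. TCL1A in RCH-ACV was the least stable, with -0.17 to -0.12 when a culture was left out (5 of 6 lost; only without SOX11 siRNA replicate 3 was it kept) and -0.14 with DESeq2 (adjusted p = 0.0646). RFLNB in RCH-ACV ranged from -0.70 to -0.45 (lost without siRNA replicate 1, control replicate 1 or control replicate 2). LRIG1 ranged from 0.23 to 0.33 in REH (lost without siRNA replicate 1 or control replicate 3) and from -0.44 to -0.35 in 697 (lost without siRNA replicate 1, siRNA replicate 2 or control replicate 3), and its REH value was 0.26 in the fit over 18 samples (adjusted p = 0.0568). At adjusted p under 0.01, LRIG1 in 697 (-0.40), TCL1A in RCH-ACV (-0.14) and RFLNB in RCH-ACV (-0.55) were not called. The cause was not tested. Of the pairs of cultures with the same replicate number, 1 of 9 correlated over 0.1, and 3 of 18 samples correlated best with their own number. These correlations cannot show whether the cultures were handled as pairs. With the replicate block in edgeR, 697 had 29 calls, and none of the 9 members' calls was lost. The calls of FOXO1 in REH (adjusted p = 0.104), PIK3AP1 in 697 (0.151) and AKT2 in RCH-ACV (0.0558) were lost. The control level of TCL1A, REH minus RCH-ACV, turned to 0.045 with library size alone and ranged from -0.032 to 0.0067 with a culture left out (reversed without RCH-ACV control replicate 1).

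Counts of called genes moved more. REH had 594, and 275 at 0.01, 315 with DESeq2, 1513 with transcripts apart, 228 in the fit over 18 samples and 296 to 522 with a culture left out. In 697 there were 68, and 29 at 0.01, 119 with no filter, 227 with transcripts apart, 189 in the fit over 18 samples and 25 to 70 with a culture left out. In RCH-ACV there were 973, and 401 at 0.01, 577 with DESeq2, 2597 with transcripts apart, and 386 (without siRNA replicate 2) to 2479 (without siRNA replicate 3) with a culture left out. Control contrasts with transcripts apart had 24315, 23526 and 20675 calls, in the order REH minus 697, REH minus RCH-ACV and 697 minus RCH-ACV. Low counts of RFLNB in RCH-ACV limit that value.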
